A study of Mus musculus with 10 samples.

Results

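The regions described here are 442 peak-rich 500 kb bins of the mouse genome whose number of ATAC-seq peaks was nearly the same in resting, naive B cells as in plasma cells, which secrete antibody. Bins were chosen by their peak counts: a bin was taken where at least 12 peak midpoints lay in it in both peak lists and the 2 counts differed by less than 4. This gave 442 of 4955 bins of chromosomes 1 to 19 (build mm9), 8.92% of the bins and 221 Mb in all. Those counts are a description and support nothing. The contacts come from another assay, TCC, a tethered form of Hi-C that counts read pairs joining 2 places of the genome.

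The study compared C57BL/6 naive B cells with plasma cells by RNA-seq, ATAC-seq and TCC, with 1 library per assay and cell type. Its title names a hub between chromosomes and the unfolded protein response. Naive B cells were CD23+ IgD+ cells sorted from spleen for ATAC-seq and RNA-seq, and CD23+ cells purified on beads for TCC. The plasma cells of the ATAC library, which chose the bins, were sorted from bone marrow as CD138+ B220- cells. The plasma cells of the TCC library came from Blimp-GFP mice, which carry a fluorescent reporter of the plasma cell regulator Blimp-1. Their source label says that they were taken ex vivo, and their protocol describes CD23+ cells cultured for 3 days with 10 µg/ml LPS (lipopolysaccharide, a B cell activator) and sorted for GFP. For the plasma RNA library the labels name both an in vitro source and a bone marrow sort. Cell type, cell source and library therefore cannot be told apart, and no difference between the cell types has a replicate check. The intervals given are at 95% and speak for counting error alone.

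In the interphase nucleus, active and inactive chromatin occupy separate compartments, and active regions of different chromosomes meet more often than other regions do. Accessible sites, mainly promoters and enhancers, mark the active compartment, while regions without accessible sites tend to lie near the nuclear lamina. In mouse cells the chromosomes carry their centromere at the first end, and centromeres of several chromosomes cluster together.

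From a chosen panel of 24 genes, 3 of the unfolded protein response were placed in these bins. Xbp1, another panel gene of that pathway, was placed outside them. The share of all genes in such bins was not counted. The promoters of the 3 are shown as a description and do not link the regions to the pathway. Hspa5 encodes the endoplasmic reticulum chaperone BiP, Ern1 the stress sensor IRE1, and Atf4 the transcription factor of the PERK arm. The lines give 250 bases before to 50 after the start of each gene from RefSeq, build GRCm38.p6, 5′ to 3′ on the gene's strand. Hspa5 lies at chr2:34771840-34772139 on the plus strand, Atf4 at chr15:80254934-80255233 on the plus strand and Ern1 at chr11:106487747-106488046 on the minus strand. Capitals mark the endoplasmic reticulum stress element, searched on both strands as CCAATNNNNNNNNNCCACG, with no other motif searched.
Hspa5: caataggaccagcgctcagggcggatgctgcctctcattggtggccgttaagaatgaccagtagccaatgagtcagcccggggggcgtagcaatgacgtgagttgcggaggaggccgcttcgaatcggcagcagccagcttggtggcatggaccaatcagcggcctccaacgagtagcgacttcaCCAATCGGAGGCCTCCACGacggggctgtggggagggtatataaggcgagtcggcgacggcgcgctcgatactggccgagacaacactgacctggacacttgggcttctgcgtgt
Atf4: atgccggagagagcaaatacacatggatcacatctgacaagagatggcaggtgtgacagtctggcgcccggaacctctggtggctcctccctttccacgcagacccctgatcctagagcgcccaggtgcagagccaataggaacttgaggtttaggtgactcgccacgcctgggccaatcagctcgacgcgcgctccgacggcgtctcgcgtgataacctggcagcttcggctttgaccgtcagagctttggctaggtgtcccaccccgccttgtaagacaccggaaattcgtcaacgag
Ern1: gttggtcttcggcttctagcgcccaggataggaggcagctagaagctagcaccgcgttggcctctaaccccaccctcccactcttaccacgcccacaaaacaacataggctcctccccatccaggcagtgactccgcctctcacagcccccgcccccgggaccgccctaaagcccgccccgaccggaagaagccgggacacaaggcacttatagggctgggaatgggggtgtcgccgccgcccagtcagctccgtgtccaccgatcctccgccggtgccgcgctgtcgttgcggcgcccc
The Hspa5 window held 1 match and the other two held 0. Of 32544 promoters of the same length, 39 held a match (0.120%). A match is a description of letters and not a measured site.

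The libraries fitted their names in RNA. The summed level of 7 plasma cell markers was 1021 TPM (a length-scaled share of all transcripts) in naive cells and 7996 TPM in plasma cells, and that of the 6 naive B cell markers measured of 7 was 5733 TPM and 487 TPM. Markers of other cells were low in the plasma library: 5 T and NK cell genes summed to 31.7 TPM in naive cells and 0.580 TPM in plasma cells, 5 myeloid genes to 131 and 1.75 TPM, and 3 erythroid genes to 27.4 and 2.29 TPM. In the naive library 5 of 5 T and NK cell genes and 5 of 5 myeloid genes reached 1 TPM, against 0 and 1 in the plasma library. The TCC maps held 8.55 M read pairs between bins of different autosomes in naive cells and 7.19 M in plasma cells, and 17.9 M and 19.4 M between bins of the same autosome. A bin was usable where enough of its entries were filled in both maps, which left 4537 bins and all 442 of the peak-rich stable bins. In the balanced maps the mean contact between chromosomes was lower in plasma cells by a log2 difference of -0.31, and each contact below is given relative to the mean of its own map.

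The 442 bins were spread over every autosome but unevenly. They made up 20.2% of the usable bins of chromosome 19, 18.6% of chromosome 17 and 16.8% of chromosome 11, which had the most (40 bins). Chromosome 8 had 4.47% (11 bins) and chromosome 18 had 4.55% (8 bins). Chromosome 8 was also low in the stable share of its peak-rich bins: 37.9% of 29 bins were stable, against 79.3% of 29 on chromosome 19 and 75.0% of 44 on chromosome 17. The bins formed 355 runs of adjacent bins, of which 281 were single bins, 63 were pairs, 9 held 3 bins and 2 held 4. One run of 4 lay at chr9:107000001-109000000 with 67 naive and 73 plasma peaks, the other at chr17:23500001-25500000 with 72 and 73. Runs of 3 at chr3:115000001-116500000, chr4:40500001-42000000, chr5:23000001-24500000 and chr8:86000001-87500000 held 39 and 41, 39 and 45, 46 and 44, and 55 and 58 peaks. Of 882 flanking bins, 19.7% were peak-rich stable bins themselves (8.92% of all bins are) and 4.54% held no peak (19.4% of all bins). Peak-rich stable bins thus had peak-rich neighbours more often than bins at large, as a description of place.

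The counts were close and the sites were not all the same. The bins held 12 to 38 naive peaks and 12 to 39 plasma peaks, with a median of 16 in both lists. In 77 bins the counts were equal, in 238 the plasma count was higher and in 127 the naive count was higher. Together they held 7328 of 28614 autosomal naive peaks (25.6%) and 7559 of 29405 plasma peaks (25.7%). Of the naive peaks in them, 78.8% (Clopper-Pearson interval 77.8% to 79.7%) shared at least 1 base with a plasma peak, and 75.6% (74.6% to 76.5%) of the plasma peaks overlapped a naive peak. Over all autosomal peaks these shares were 69.2% and 66.8%. In peak-rich bins beyond the limit on the count difference they were 86.2% and 61.5% where the plasma count was higher. Where the naive count was higher they were 59.8% and 81.5%. The stable bins thus lay between these classes in each list, and high overlap is not particular to them. The bins were chosen by counts in the same peak lists, so the shares are not independent of that choice.

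No bin had every peak in both lists. The number of peaks in 1 list alone ran from 1 to 21 per bin, with a median of 8, and the share found in both from 34.5% to 97.5%, with a median of 76.9%. In 4 bins less than 50% of the peaks were found in both lists, and in 43 bins at least 90% were. The lowest share belonged to the bin of Irf4, chr13:30500001-31000000, where 13 naive and 16 plasma peaks included 5 and 5 that overlapped. Irf4 encodes a transcription factor required for plasma cell differentiation. The next lowest were chr14:100500001-101000000 with 5 of 12 peaks overlapping in each list and chr4:63000001-63500000 with 7 of 13 and 6 of 16. The highest was chr11:68500001-69000000, where 19 of 20 naive and 20 of 20 plasma peaks overlapped. Scores were lower for peaks of 1 list alone: the authors' caller score had a median of 104 for such naive peaks and 313 for those found in both, and of 115 and 368 in the plasma list. In covered length the bins were less even than in counts. Peaks covered 31.7 kb per bin in naive cells and 37.3 kb in plasma cells, with median peak widths of 1666 and 1909 bases, and over all autosomal peaks the median widths were 1631 and 1845 bases.

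**Figure D1:**
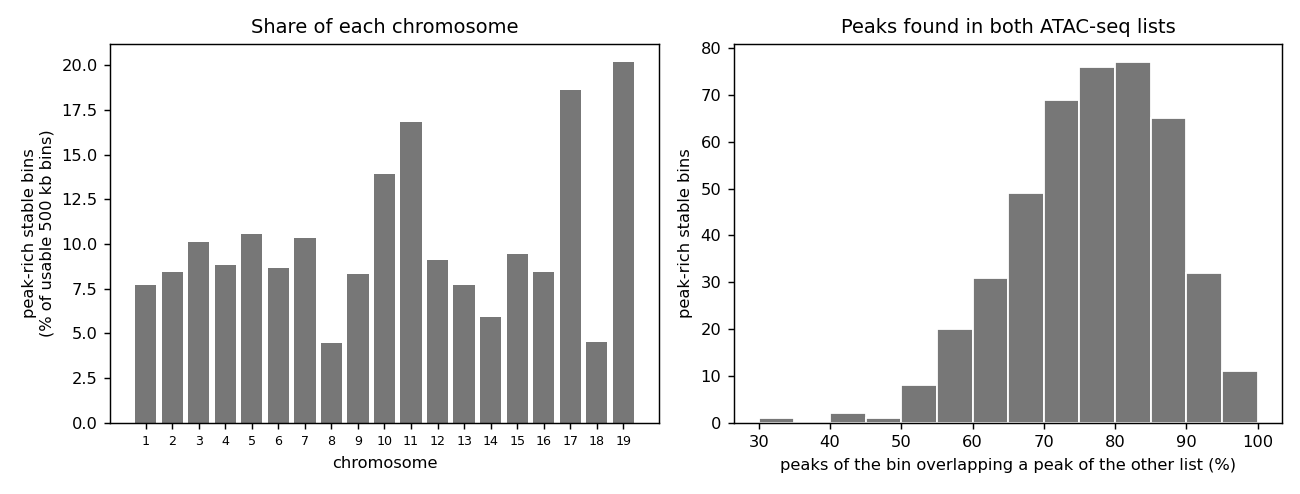
Left, the share of each chromosome's usable 500 kb bins that were peak-rich and stable, in percent, with 1 bar per chromosome; chromosomes 19, 17 and 11 stand highest at 20.2%, 18.6% and 16.8%. Right, the number of these bins by the percent of their peaks that overlap a peak of the other list; the bins run from 34.5% to 97.5%.

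Between chromosomes, the peak-rich stable bins met each other more often than the mean pair in both maps. Contact is the mean balanced contact of the bin pairs divided by the mean of all usable pairs on different autosomes, so 1 is the mean of the map. Among the bins it was 2.27 in naive cells (interval 2.26 to 2.28, 229503 read pairs) and 2.09 in plasma cells (2.09 to 2.10, 176846 read pairs). The log2 ratio of plasma over naive was -0.12 (-0.13 to -0.11), a small difference without a replicate check. Its size depended on the processing by more than the counting interval. It was -0.067 with a stricter filter, which kept 436 of the 442 bins and 3491 of the 4537 usable bins that set the mean. In the 2 Mb maps it was -0.22, among 85 bins of 2 Mb that each held at least 2 stable bins. That is another set of bins.

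Contact was higher with peak-rich than with peak-poor partners, but among the peak-rich classes it did not follow the naive peak count. With peak-rich bins whose plasma count was higher by 4 or more (gaining, 218 bins) it was 2.64 in naive cells and 2.42 in plasma cells. With peak-rich bins whose naive count was higher by 4 or more (losing, 68 usable bins of 69) it was 1.98 and 1.78. With bins that reached 12 peaks in 1 list only it was 1.74 and 1.67, with bins of 6 to 11 peaks 1.33 and 1.30, and with bins of 1 to 5 peaks 0.631 and 0.685. With bins without any peak it was 0.346 (0.344 to 0.348) and 0.453 (0.450 to 0.456), a log2 ratio of 0.39 (0.38 to 0.40). Contact among peak-rich bins was thus lower in the plasma map, and contact with peak-poor bins was higher there.

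Peak-rich bins with changing counts also had lower contact among themselves in the plasma map. Gaining bins had a contact of 3.33 among themselves in naive cells and 3.02 in plasma cells (log2 -0.14), and losing bins 2.24 and 1.72 (log2 -0.38, -0.45 to -0.31). The stable bins' log2 ratio of -0.12 is the least negative of the 3, and the counting intervals of the stable (-0.13 to -0.11) and gaining bins (-0.15 to -0.12) overlap. The classes also differ in the number of peaks: median naive and plasma counts were 16 and 16 in stable, 15 and 22 in gaining and 20 and 14 in losing bins. At a mean count of 15 to under 20 peaks, the median contact with the stable bins was 2.13 and 2.09 for 189 stable, 2.31 and 2.31 for 120 gaining and 1.98 and 1.81 for 41 losing bins.

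Among the stable bins contact also went with the number of peaks. Bins with a mean count of 12 to under 15 peaks had a contact of 1.90 in naive cells and 1.78 in plasma cells among themselves (163 bins), those with 15 to under 20 had 2.31 and 2.13 (189 bins) and those with 20 or more had 3.27 and 2.95 (90 bins). Spearman's rho of a bin's contact with its mean peak count was 0.28 in naive cells and 0.32 in plasma cells over 442 bins that share the 2 libraries, and with its share of peaks found in both lists it was 0.18 and 0.22. At the threshold, the 73 bins with exactly 12 peaks in the lower list had median contacts of 1.91 and 1.72. The 87 bins just outside, with 11 in the lower list and counts differing by less than 4, had 1.67 and 1.65. The 98 bins whose counts differed by 3 had 2.26 and 2.09, and 79 peak-rich bins just outside with a difference of 4 had 2.36 and 2.25.

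Within chromosomes contact among the stable bins was again above 1 and lower in the plasma map. Here contact is observed over expected, where the expected value is the mean of the same chromosome at the same distance, for pairs at least 2 Mb apart. Among the stable bins it was 1.33 in naive cells (1.32 to 1.33, 227363 read pairs) and 1.22 in plasma cells (1.21 to 1.22, 205263 read pairs), a log2 ratio of -0.12 (-0.13 to -0.11). With gaining bins it was 1.38 and 1.21 and with losing bins 1.24 and 1.20, so the plasma contact with gaining bins did not exceed that among stable bins, unlike between chromosomes. Among themselves gaining bins had a log2 ratio of -0.26 (-0.28 to -0.25) and losing bins one of -0.12 (-0.18 to -0.06). With bins without peaks the stable bins had 0.272 and 0.376, a log2 ratio of 0.47 (0.46 to 0.48). Contact among the stable bins was above 1 on 19 of 19 chromosomes in naive cells and on 18 in plasma cells, the exception being chromosome 13 at 0.937, and lower in plasma cells on 18. The exception there was chromosome 19, at 1.06 in naive cells and 1.15 in plasma cells.

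**Figure D2:**
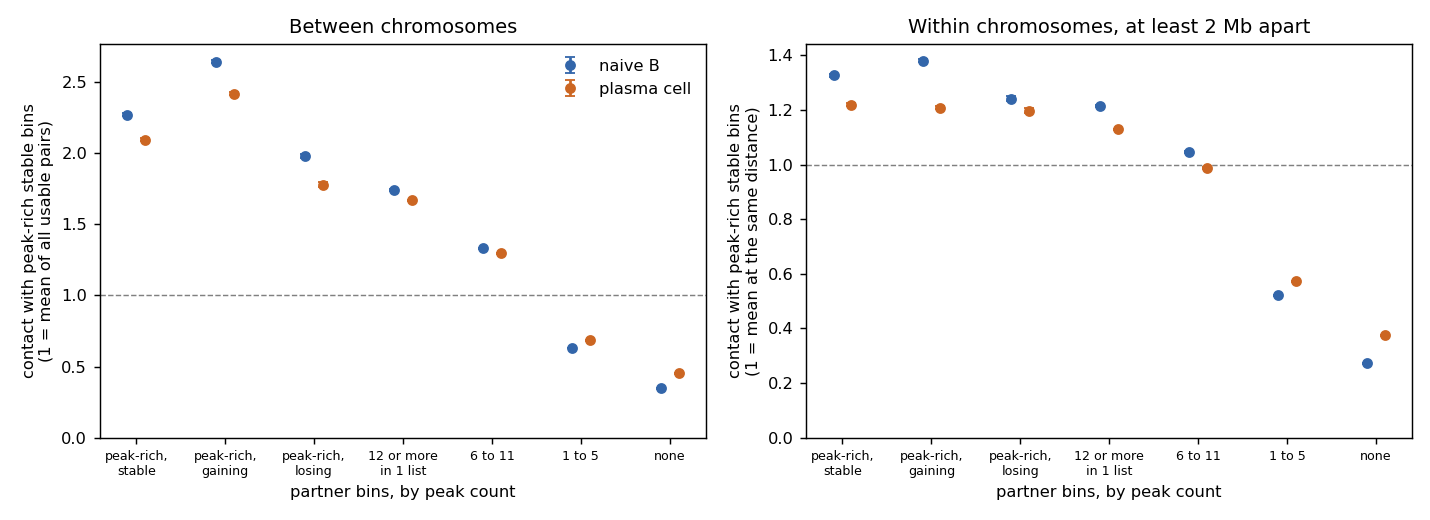
Contact of the 442 peak-rich stable bins with bins of 7 classes by peak count, between chromosomes (left, 1 is the mean of all usable pairs) and within chromosomes at least 2 Mb apart (right, 1 is the mean at the same distance). Points are single maps, blue for naive B and orange for plasma cell, and error bars are 95% counting intervals that mostly lie within the points; between chromosomes the points go from 2.27 and 2.09 among the stable bins to 0.346 and 0.453 with bins without peaks.

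The direction turned with distance. Adjacent bins, 0.5 Mb apart, had an observed over expected contact of 1.39 in naive cells and 1.30 in plasma cells. From 2 to 10 Mb it was 1.25 and 1.14 (log2 -0.13, -0.15 to -0.12) and from 10 to 30 Mb 1.33 and 1.21 (log2 -0.13). From 30 to 60 Mb it was 1.32 and 1.31, with a log2 ratio of -0.01 whose interval of -0.03 to 0.01 includes 0. Beyond 60 Mb it was 1.51 and 1.59, higher in plasma cells by 0.07 (0.04 to 0.10), on 35698 naive and 11776 plasma read pairs. The gaining and losing bins did likewise, with a log2 ratio of -0.23 from 10 to 30 Mb and of 0.08 beyond 60 Mb. Contact of the stable bins with bins without peaks was higher in plasma cells at every distance, by log2 ratios from 0.24 for adjacent bins to 0.48 beyond 60 Mb.

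**Figure D3:**
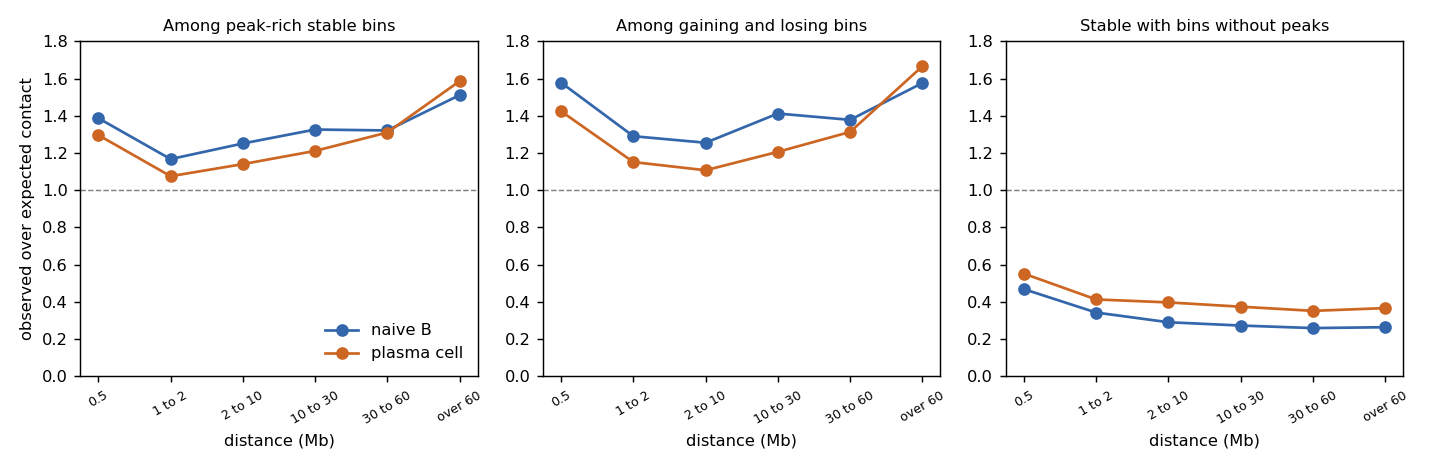
Observed over expected contact within chromosomes (vertical axis, 1 is the mean of the chromosome at that distance) by distance in Mb, for naive B (blue) and plasma cell (orange), with 1 map per cell type and no error bars. Among stable bins (left) and among gaining and losing bins (middle) the plasma line lies below the naive line up to 30 to 60 Mb and above it beyond 60 Mb (1.59 against 1.51 for the stable bins); for stable bins with bins without peaks (right) it lies above throughout.

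Single bins followed the mean. In naive B cells 434 of the 442 bins had a contact with the other stable bins on other chromosomes above the map's mean (98.2%), against 46.2% of all 4537 usable bins. In plasma cells 438 did (99.1%), against 46.6%. In both maps 218 of 218 gaining and 67 of 68 losing bins did so as well, so this is not particular to stable counts. The contact of the stable bins ran from 0.749 to 5.26 with a median of 2.13 in naive cells and from 0.837 to 3.92 with a median of 2.06 in plasma cells. Bins kept much of their order, with a Spearman rho of 0.89 between the maps over 442 bins. Of the 44 bins with the highest contact in each map, 30 were in both.

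The difference between the maps was small for most bins. Contact with the other stable bins was lower in plasma cells in 285 bins and higher in 157. It was at least 1.25-fold higher in 18 bins (4.07%), against 28.2% of all usable bins, and at least 1.25-fold lower in 60 (13.6%), against 10.2%. Of 218 gaining bins 9 were higher and 35 lower by that measure, and of 68 losing bins 1 and 20. Few higher calls are therefore not particular to stable counts. Contact of the stable bins with bins without peaks was higher in plasma cells in 407 of the 442, with a median of 0.297 in naive cells and 0.414 in plasma cells. It was at least 1.25-fold higher in 303 bins (68.6%), against 29.5% of all usable bins, and at least 1.25-fold lower in 2 (0.453%), against 6.33%. The median log2 ratio of this contact was 0.45 over the stable bins and 0.12 over all usable bins. At least 1.25-fold higher contact with bins without peaks was also seen in 148 of 218 gaining and in 48 of 68 losing bins. That share, too, is not particular to bins with stable counts.

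**Figure D4:**
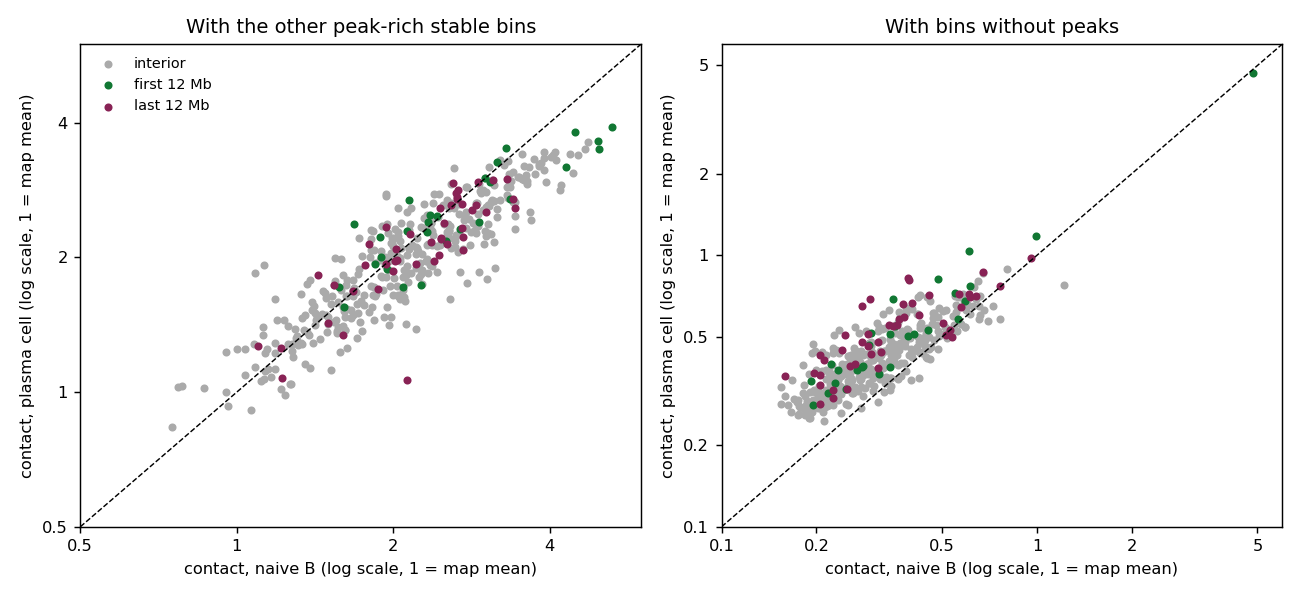
Contact of each of the 442 peak-rich stable bins in plasma cells against naive B cells, with the other such bins on other chromosomes (left) and with bins without peaks (right); both axes are logarithmic, 1 is the mean of the map, each point is 1 bin, and the dashed line marks equal contact. Green and purple mark bins within 12 Mb of the first and last chromosome end; at left the bins with the highest naive contact lie below the line, and at right most bins lie above it, with 1 bin apart at 4.85 and 4.67.

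The bins with the highest contact lay near the start of chromosome 19. In naive B cells the highest was chr19:5000001-5500000 (17 peaks in both lists) at 5.26, followed by chr19:6000001-6500000 at 4.98 and chr19:5500001-6000000 at 4.95, adjacent bins of 1 run. Next came chr3:88500001-89000000 at 4.73 and chr9:108000001-108500000 at 4.67. In plasma cells these 5 had contacts of 3.92, 3.49, 3.65, 3.62 and 3.49, so each was lower there, by log2 ratios between -0.39 and -0.51. The plasma map had chr19:5000001-5500000 as its highest too, followed by chr19:4000001-4500000 at 3.82 (4.47 in naive B cells). Among its 5 highest was also chr11:6000001-6500000, at 3.30 in naive cells and 3.51 in plasma cells.

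The bins with the lowest contact held 12 to 16 naive peaks and 12 to 13 plasma peaks. The lowest in both maps was chr10:70500001-71000000 (13 peaks in both lists), at 0.749 in naive cells and 0.837 in plasma cells. In naive B cells chr14:100500001-101000000 followed at 0.772, chr3:75500001-76000000 at 0.786, chr2:151500001-152000000 at 0.865 and chr13:22000001-22500000 at 0.954. In plasma cells the next lowest were chr7:114500001-115000000 at 0.913, chr10:66000001-66500000 at 0.932, chr1:166500001-167000000 at 0.987 and chr1:65000001-65500000 at 1.00.

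The compartment component, the first principal component of each chromosome's contacts with the peak-rich side set as positive, was positive in 436 of the 442 bins in naive cells and in 436 in plasma cells. Of all usable bins 50.7% and 47.7% were positive. Gaining bins were positive in 217 of 218 in each map, and losing bins in 67 and 66 of 68. Because peaks set the sign, the share says only that the stable bins lay on the peak-rich side of their chromosome. Only 8 stable bins were negative in either map, and they included chr10:70500001-71000000 in both maps, chr14:100500001-101000000 in naive cells (-0.91, against 0.01 in plasma cells) and the Ikzf1 bin in both. The Ikzf1 bin, at -0.31 and -0.06, still had contacts of 2.09 and 1.72 with the other stable bins. Its contacts with bins without peaks were 0.590 and 0.679. Whether the first component is the compartment was not checked for each chromosome.

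The largest gain of contact belonged to chr3:65000001-65500000 (15 peaks in both lists), at 1.13 in naive cells and 1.92 in plasma cells, a log2 ratio of 0.77 (0.60 to 0.93). The next were chr2:13500001-14000000 at 1.09 and 1.84, chr1:87500001-88000000 at 1.93 and 2.77, chr6:29000001-29500000 at 1.94 and 2.75 and chr11:3000001-3500000 at 1.68 and 2.37. The largest loss was at chr10:118000001-118500000 (14 peaks in both lists), from 2.13 to 1.06, with a log2 interval of -1.17 to -0.83. Its contact with bins without peaks was 0.296 and 0.691, and its component 1.36 and 0.41. The following losses were at chr12:101500001-102000000 (3.03 to 1.79), chr11:44500001-45000000 (3.13 to 1.90), chr17:52000001-52500000 (2.21 to 1.38) and chr17:48000001-48500000 (2.57 to 1.61). In all 5 contact with bins without peaks was higher in plasma cells. With equal or nearly equal peak counts, bins thus differed in contact in both directions.

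The bin at the start of chromosome 11, chr11:3000001-3500000, stood apart from the rest. Its contact with bins without peaks was 4.85 in naive cells and 4.67 in plasma cells, where the median stable bin had 0.297 and 0.414, and its mean contact with all bins of other chromosomes was 3.11 and 3.46. It holds 14 naive and 12 plasma peaks, 11 of which overlap in each list. Without it the contact among stable bins was 2.28 in naive cells and 2.10 in plasma cells, and the log2 ratio with bins without peaks was 0.40.

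The ends of chromosomes went another way than the interior. Of the 442 bins, 28 lay in the first 12 Mb, which hold the centromere side, 46 in the last 12 Mb and 368 between. Contact among stable bins of the first 12 Mb of different chromosomes was 3.71 in naive cells and 5.45 in plasma cells, on 1260 and 1856 read pairs. Among those of the last 12 Mb it was 2.67 and 3.62, on 3001 and 3232 read pairs. Among interior bins it was 2.18 and 2.01, and between the first and the last 12 Mb it was 2.57 and 1.31 (3406 and 1493 read pairs). All usable bins showed the same directions: 2.01 and 3.02 for the first 12 Mb, 1.44 and 2.37 for the last, 0.938 and 0.929 for the interior and 1.13 and 0.611 for first with last. Like ends of chromosomes thus had more contact in the plasma map and unlike ends less, in stable bins and in bins at large.

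By chromosome, the stable bins had contacts above the mean in all 171 pairs of chromosomes in both maps, and above the mean of the same pair of chromosomes in all 171 as well. The contact was lower in plasma cells in 127 pairs, in 69 with an interval below 0, and higher in 44, in 21 with an interval above 0. Chromosomes 15 and 19 had the highest naive contact, 5.54, and 3.33 in plasma cells (log2 -0.73, -0.83 to -0.64). All usable bins of that pair had 2.50 and 1.69. Chromosomes 17 and 19 had the highest in plasma cells, 3.74, after 5.19 in naive B cells. Contacts of chromosome 19 with 11 and 9 were also lower in plasma cells, 4.94 and 3.31 and 4.13 and 2.67. The pair of chromosomes 6 and 19 had the largest gain, 2.02 and 2.47 (log2 0.29, 0.17 to 0.41), beside 1.06 and 1.28 for all usable bins of the pair. Chromosomes 1 and 8 had the lowest contact in both maps, 1.45 and 1.41. Over all partners, contact was lower in plasma cells for 18 of the 19 chromosomes, from -0.003 on chromosome 4 to -0.30 on chromosome 15, and higher for chromosome 6 by 0.07.

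**Figure D5:**
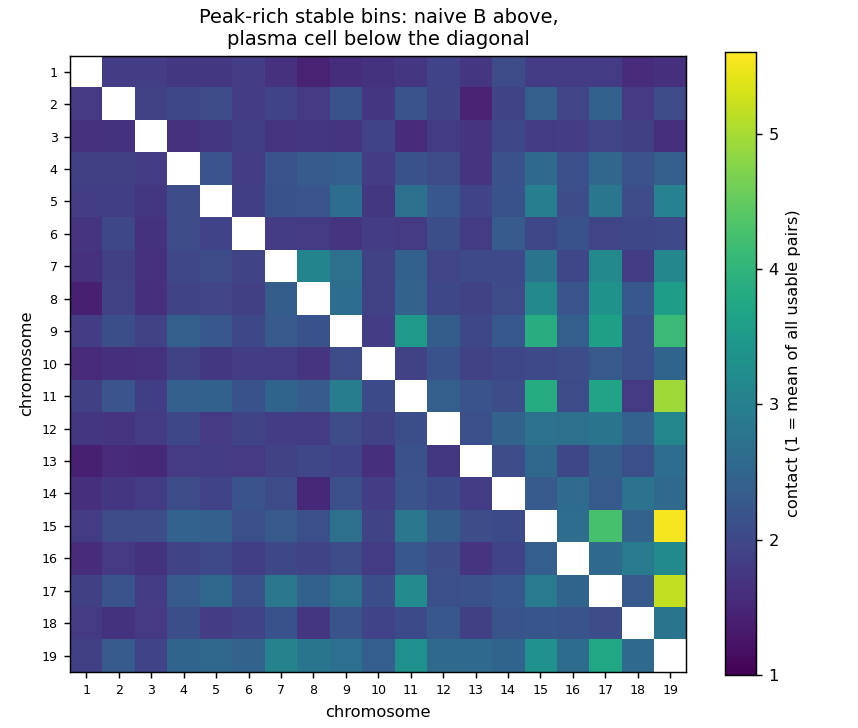
Contact among peak-rich stable bins for each pair of the 19 autosomes, coloured from 1 to above 5 (1 is the mean of all usable pairs), with naive B above the diagonal and plasma cell below it. Pairs of chromosome 19 with 15, 17 and 11 are brightest in naive B (5.54, 5.19 and 4.94) and darker in plasma cells (3.33, 3.74 and 3.31).

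Few single pairs of bins had enough reads to compare. Of pairs of stable bins on different chromosomes, 299 had at least 20 read pairs in 1 map. At least 2-fold lower contact in plasma cells was seen in 165 of them (55.2%), against 45.0% of the 1827 such pairs among all usable bins, and at least 2-fold higher contact in 14 (4.68%), against 10.5%. The naive map had more read pairs between chromosomes, so a pair reaches 20 there more easily, and both shares carry that choice. The 5 largest losses all involved chromosome 19. The first joined chr11:70500001-71000000 with chr19:5500001-6000000, with 28 read pairs in naive cells (18.6 to 40.5) and 0 in plasma cells (up to 3.69). The others had 27 and 1 (chr9:108500001-109000000 with chr19:4000001-4500000), 29 and 2 (chr11:44500001-45000000 with chr19:33000001-33500000), 23 and 2 (chr8:74000001-74500000 with chr19:6000001-6500000) and 20 and 2 (chr11:106500001-107000000 with chr19:5500001-6000000). Of the 5 largest gains, 4 involved the bin at the start of chromosome 11 that stood apart, with 1 to 2 naive and 21 to 29 plasma read pairs. The remaining one joined chr11:4500001-5000000 with chr17:5500001-6000000, both in the first 12 Mb, with 5 (1.62 to 11.7) and 21 (13.0 to 32.1) read pairs.

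The deposited interaction lists, which the authors made in 1 Mb bins with their own background model, held a larger share of the pairs of stable bins than of all pairs. The stable bins fell in 394 of 2326 bins of 1 Mb. Of their 73102 pairs on different chromosomes, 8250 were in the naive list (11.3%, Clopper-Pearson interval 11.1% to 11.5%) and 6837 in the plasma list (9.35%, 9.14% to 9.57%). Over all pairs of 1 Mb bins on different autosomes 2.01% and 1.92% were listed. Among the 269 bins holding a gaining or losing bin 5777 of 34082 pairs (16.95%) were in the naive list and 4492 (13.2%) in the plasma list. Both shares were above those of the stable bins, so a larger listed share is not particular to stable counts. The stable bins made 2.86% of the pairs and 16.1% and 13.9% of the listed ones. Of their listed pairs 3757 were in both lists, 45.5% of the naive and 55.0% of the plasma ones; over all listed pairs these shares were 31.1% and 32.4%. A 1 Mb bin had a median of 23 listed partners of its kind in each list, with up to 166 in naive cells and 133 in plasma cells, while 20 and 25 bins had none. The bin with the most in naive B cells began at chromosome 13, base 55000001, and the one with the most in plasma cells at chromosome 16, base 17000001.

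The panel of 24 genes, mostly of B and plasma cells but with Actb and Gapdh among them, was placed at approximate mm9 positions. Of these, 13 lay in 12 of the stable bins, 6 in gaining bins, 1 in a losing bin and 2 in bins rich in 1 list. Ell2 and Myc lay in bins of 6 to 11 peaks. The RNA of the 13 genes in stable bins went both ways, and the peak counts of their bins were close by choice. After centring on a median ratio, 5 stood at least 2-fold above naive cells and 2 at least 2-fold below, while 6 lay between. The same calls were made for 16.0% (higher) and 22.1% (lower) of 10219 genes that reached 5 TPM in either library. Without centring 4 of the 13 were higher, 8 were lower, including all 6 that lay between, and Atf4, at 0.44, was not called; 7.75% and 57.6% of the 10219 genes were then called higher and lower. Panel genes in gaining bins also went both ways, with centred log2 ratios from -5.2 (Spib) to 7.2 (Prdm1). Going both ways is thus not particular to stable counts. Without replicates these are values of single libraries, on the log2(TPM + 1) scale. The centred ones are relative to a median shift of -0.99 over 7495 genes that reached 5 TPM in each library. TPM is a share of all transcripts, so neither the shift nor a ratio measures RNA per cell. For a lower gene, fewer cells of a type that expresses it and less of its RNA per cell cannot be told apart.

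Fos, an immediate early transcription factor, stood at 3.70 and 270 TPM in the naive and plasma libraries (centred log2 ratio 6.84) with 17 and 18 peaks in its bin. Hspa5 had 314 and 1483 TPM (3.22) with 14 and 16 peaks, of which 13 overlapped in each list. Ern1 had 5.89 and 22.9 TPM (2.78) and shares its bin of 17 and 17 peaks with Cd79b, a chain of the B cell receptor complex, which had 2587 and 585 TPM (-1.16). One bin with the same number of peaks in both lists thus held a gene that was higher and one that was lower. Irf4 had 96.6 and 221 TPM (2.17) and Atf4 325 and 441 TPM (1.43). Foxo1, a transcription factor of resting B cells, had 90.1 and 18.1 TPM (-1.27) with 14 and 13 peaks.

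The remaining 6 genes lay between the calls. Cd79a, the partner of Cd79b, had 2572 and 1181 TPM, a centred log2 ratio of -0.14. Ikzf1 and Ikzf3, lymphoid zinc finger regulators, had ratios of -0.83 and -0.96, Spi1, which encodes PU.1, -0.68 and the NF-kappaB subunit gene Nfkb1 -0.83. H2-Ab1, a chain of MHC class II, had 3582 and 910 TPM (-0.99). Its bin, chr17:34000001-34500000, was the richest of the 442 in peaks, with 38 and 39, of which 29 overlapped in each list.

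The panel's bins had contacts with the other stable bins from 1.95 (Nfkb1) to 4.21 (Atf4) in naive cells and from 1.72 (Ikzf1) to 3.20 (H2-Ab1) in plasma cells. The Atf4 bin had 4.21 in naive cells and 2.91 in plasma cells with the other stable bins (log2 -0.53, -0.63 to -0.43), the largest difference among the 12. The Cd79a bin had 2.66 and 2.06 (-0.37), the Ikzf3 bin 3.62 and 2.97 (-0.29), the Ikzf1 bin 2.09 and 1.72 (-0.28), the Fos bin 3.04 and 2.62 (-0.22) and the H2-Ab1 bin 3.58 and 3.20 (-0.16). The Irf4 bin was the only one of the 12 with an interval above 0, at 2.07 and 2.39 (0.21, 0.08 to 0.34). The intervals of the Hspa5, Ern1, Foxo1, Spi1 and Nfkb1 bins included 0, with ratios from -0.06 to 0.08. Atf4 and Irf4, both higher in RNA after centring, thus stood at the 2 ends of this order.

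Between pairs of these 12 bins the counts were small. Over 61 pairs on different chromosomes the median contact was 3.22 in naive cells and 3.16 in plasma cells, 51 and 53 pairs lay above the mean, and in 0 pairs did the counting intervals of the maps separate. Contact was higher in plasma cells in 30 of the 61 pairs. The pair of Atf4 and Ikzf3 had the most naive read pairs, 17 (9.90 to 27.2), and 9 (4.12 to 17.1) in plasma cells. Atf4 and the bin of Ern1 and Cd79b had 15 (8.40 to 24.7) and 4 (1.09 to 10.2). Atf4 and Hspa5 had 13 (6.92 to 22.2) and 6 (2.20 to 13.1). Atf4 and Foxo1 went the other way, with 1 and 6. Prdm1, which encodes Blimp-1, lies in a gaining bin and Xbp1, the transcription factor made active by IRE1, in a bin rich in the plasma list only. Irf4 had 3 and 7 read pairs with Prdm1 and 3 and 6 with Xbp1, and Hspa5 had 6 and 7 with Xbp1. Other pairs were lower in plasma cells: Nfkb1 had 5 and 0 read pairs with Prdm1, and Atf4 had 9 and 7 with Xbp1. In all of these pairs the counting intervals of the 2 maps overlap. They are separate intervals of each read count, and their overlap does not exclude a difference, so none is called or excluded.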

How the data were processed

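Of 10 samples, 6 libraries were used, 1 per assay and cell type, grouped by their titles; the ChIP-seq samples were not analysed here. The submitters' processing notes name build mm9 and, among tools, kallisto, MACS 1.4, Picard, TopHat, HOMER and Bowtie; versions, filters and pooling beyond these were not stated. The deposited peak lists hold the authors' caller score per peak. The deposited maps, in 500 kb and 2 Mb bins, hold a contact signal that the authors balanced so that rows have equal sums. The deposited interaction lists give the authors' read pair counts and Z-scores for pairs of 1 Mb bins, per the file headers. The deposited RNA files hold kallisto estimated counts and TPM, per the file headers.

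The plasma map was scaled to the mean row sum of the naive map, and chromosome starts were found by the run of empty bins there. Whole read pairs were recovered from the steps of low values: 99.92% of naive and 100% of plasma entries came out whole to within 0.05, and 100% of 51456 naive and 49374 plasma listed pairs had the same count in the lists. Usable bins had at least 0.5 of the median share of nonzero entries in both maps. For single pairs, 0.1 of the mean contact was added before taking ratios. Intervals are exact Poisson or Clopper-Pearson intervals at 95%; without molecular identifiers, read pairs are not independent molecules, so they speak for counting error alone. ATAC depth is unknown. RNA was summed to 26599 gene IDs, 23874 of them named from a table of symbols, and centred on 7495 genes that reached 5 TPM in each library; the libraries held 37.0 M and 43.5 M estimated counts.

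The named bins were the 5 highest and 5 lowest in contact in each map, the 5 largest gains and losses, the longest runs (6 are given, since 4 runs of 3 bins tie) and those of the gene panel; named pairs were the 5 largest gains and losses with at least 20 read pairs in 1 map. Genes were placed by mm9 positions known roughly from before, because the annotation at hand is of GRCm38, and coordinates were not carried over. The members, classes and gene lists were chosen with earlier results of these data known. With 1 library per group no test was made. The contact steps and the recovery of read pairs were tested on simulated data. Python 3.11.15, numpy 2.4.6, pandas 2.3.3, scipy 1.17.1 and matplotlib 3.10.9 were used.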

Additional observations from a re-analysis of the deposited data

How the results depend on the processing

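Of 102 values recomputed under 17 alternatives, 25 stayed within their counting interval or within 1.5 times the count, 77 moved beyond it and 0 changed direction. Only contacts and their log2 ratios could change direction. The bin counts, listed shares, shares of peaks and gene counts could not. The log2 ratio among stable bins ran from -0.22 to -0.07 between chromosomes and from -0.18 to -0.08 within them, and that with bins without peaks from 0.27 to 0.47. Pairs of values are naive then plasma, and values not given stayed within the interval. With at least 15 peaks in both lists, the bins numbered 248, contact between chromosomes was 2.64 and 2.40 (log2 -0.14), contact within them was 1.41 and 1.32 (log2 -0.10), the log2 ratio with bins without peaks was 0.43 and the listed shares were 14.3% and 12.8%. With counts differing by less than 2, the bins numbered 218, contact between chromosomes was 2.20 and 2.01 (log2 -0.13), contact within them was 1.32 and 1.20 (log2 -0.14) and the listed shares were 10.6% and 8.66%. With peaks placed by any overlap, contact between chromosomes was 2.25 and 2.07. With peaks scored at least 100, the bins numbered 291, contact between chromosomes was 2.63 and 2.43, contact within them was 1.47 and 1.30 (log2 -0.18), the log2 ratio with bins without peaks was 0.47 and the listed shares were 14.7% and 12.6%. With the stricter filter of 0.8 on usable bins, contact between chromosomes was 1.97 and 1.88 (log2 -0.067), contact within them was 1.28 and 1.21 (log2 -0.083) and the log2 ratio with bins without peaks was 0.27. With read pairs without balancing, contact between chromosomes was 2.91 and 2.68, contact within them was 1.70 and 1.58 (log2 -0.10) and the log2 ratio with bins without peaks was 0.41. In the 2 Mb maps, contact between chromosomes was 2.41 and 2.07 (log2 -0.22), contact within them was 1.13 and 1.05 (log2 -0.10) and the log2 ratio with bins without peaks was 0.44. Without the chromosome ends, contact between chromosomes was 2.32 and 2.16 (log2 -0.10) and contact within them was 1.35 and 1.24. Without chromosome 11, contact between chromosomes was 2.23 and 2.07, contact within them was 1.35 and 1.24 and the log2 ratio with bins without peaks was 0.41. Against the mean of the same pair of chromosomes, contact between chromosomes was 2.19 and 2.01. Beyond 5 Mb, contact within chromosomes was 1.36 and 1.251. With the upper 50% of each list by Z-score, the listed shares were 6.13% and 4.47%. Against the product of both bins' own contact with other chromosomes, contact between chromosomes was 1.77 and 1.66 (log2 -0.093) and the log2 ratio with bins without peaks was 0.34. Without the bin at the start of chromosome 11, the log2 ratio with bins without peaks was 0.40. Without chromosome 19, contact between chromosomes was 2.22 and 2.07 (log2 -0.10). The share of peaks found in both lists was 77.7% and 72.3% at an overlap of at least 50%. Without centring of RNA, 4 panel genes in the stable bins were higher (5 with it) and 8 lower (2 with it). The RNA alternative and the last 3 on contact (own contact of both bins, the chromosome 11 bin, chromosome 19) were chosen after seeing the data. The causes of these moves were not tested. The 2 Mb maps have no recovered read pairs, 85 bins that count as stable and 8 bins without peaks. The stricter filter left 3491 of the 4537 usable bins. Single pairs of bins mostly have too few reads to compare. No paired analysis was possible because each group has 1 library.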
